A study of Mus musculus with 63 samples.

Results

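The oxidative phosphorylation genes were followed through 63 bulk RNA libraries of embryonic mouse dorsal cortex. Members were the genes whose symbols begin as those of complex I (Nduf), complex II (Sdh), complex III (Uqcr), complex IV (Cox4 to Cox8), complex V (Atp5) and the protein-coding mitochondrial genes (mt-), with pseudogenes left out, and which reached 1 TPM (a level corrected for transcript length and scaled to the same total in each library) in at least 3 libraries. Of 105 genes with such symbols among 23078 in the table, 101 passed. They are 81 nuclear genes counted here as subunits (38 of complex I, 4 of complex II, 8 of complex III, 14 of complex IV and 17 of complex V), 13 genes of the mitochondrial genome (7, 0, 1, 3 and 2 in the same order) and 7 complex I assembly factors of the Ndufaf name. Beyond the symbol, members were selected on their TPM through this low-level threshold, and the rule itself uses no difference between groups. Complexes were assigned by symbol, so Ndufa4, now placed in complex IV, stands under complex I, and Atp5s and Atp5sl stand under complex V although they are not core subunits.

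All embryos were Ski knock-outs on the C57Bl/6 strain, and no wild type was part of the series, so nothing below describes an effect of Ski. Ski encodes a transcriptional co-repressor. Neural stem cells (NSC) had been sorted by a Hes5::GFP reporter at embryonic day (E) 11.5 to 18.5, in 26 libraries. Basal progenitors (BP, 24 libraries, E12.5 to E18.5) and newborn neurons (NBN, 13 libraries, E15.5 to E18.5) had been sorted by a Tbr2::GFP reporter, and the labels do not say how the Tbr2::GFP cells were divided into these groups. Each of the 19 groups of cell type and day holds 2 to 6 libraries, and the labels do not say whether these are separate embryos or litters, so p-values measure the spread between these libraries, which may be technical. The values carry no read counts, so the depth is unknown.

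Oxidative phosphorylation passes electrons from NADH, through complex I, and from succinate, through complex II, to complex III, cytochrome c and complex IV, where oxygen is reduced. Complexes I, III and IV pump protons across the inner mitochondrial membrane, and complex V, the ATP synthase, uses the gradient to make ATP. Mitochondrial DNA encodes the core of 4 of these complexes and none of complex II. In the developing cortex, stem cells are known for a strong glycolytic component, and neurons for a heavier reliance on respiration.

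The summed mitochondrial signal varied far more between libraries than the nuclear one, and it did so inside groups. The 13 mitochondrial genes together took 3.95% to 11.9% of all TPM in a library, and the 81 nuclear genes 1.37% to 2.20%. At E16.5 the summed mitochondrial level was 105754, 45975 and 50795 TPM in the 3 BP libraries and 101955, 50705 and 49703 TPM in the 3 NBN libraries. In both groups 1 library stood at about the level of E15.5 NBN (92231 to 109122 TPM) and the others far below it. NBN at E18.5 were narrow, at 54635 to 59646 TPM. The pooled standard deviation (SD) inside groups of the mean log2 level was 0.45 for the mitochondrial genes and 0.16 for the nuclear ones. In the same libraries the nuclear sum moved the other way: the library lowest in mitochondrial TPM was the highest in nuclear TPM in 15 of 19 groups. TPM in a library sum to a fixed total, and the part of this was not tested. The library with the highest mitochondrial sum was the lowest in nuclear sum in 12 of 19 groups. After rescaling without the mitochondrial genes it was the lowest in nuclear sum in 11 of 19 groups. With few libraries in a group, some matches of each kind arise by chance.

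**Figure D1:**
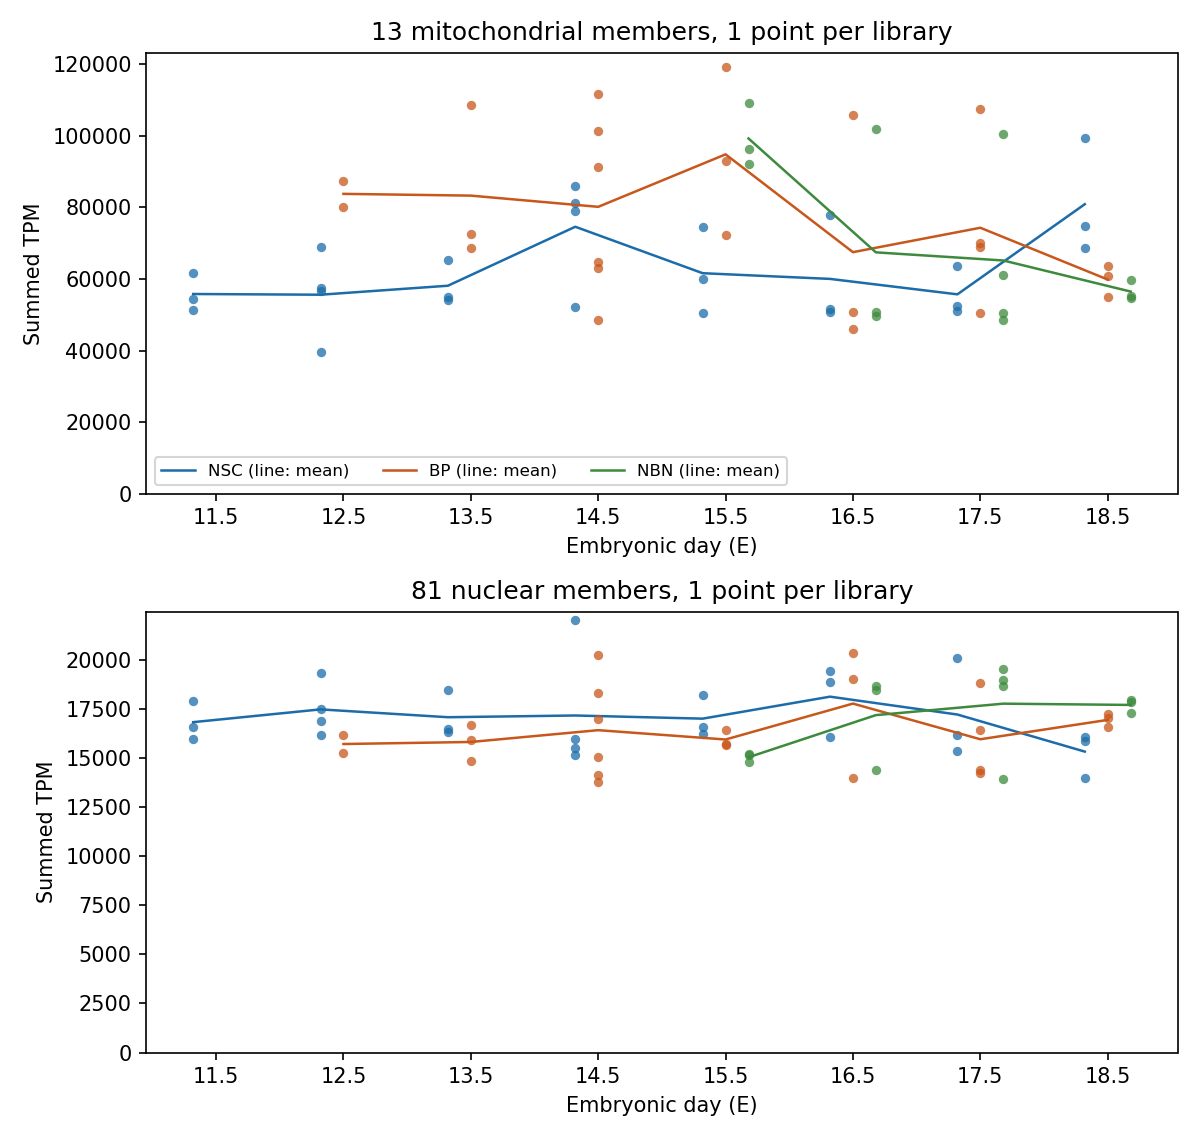
Summed TPM (vertical axes) of the mitochondrial and the nuclear members by embryonic day, 1 point per library, with lines through group means. Mitochondrial sums run from 39516 to 119159 TPM and split inside several BP and NBN groups, while nuclear sums stay between 13748 and 22016 TPM.

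Transcript length moved with these sums. In each library the rank correlation of level with transcript length over the other tested genes lay between -0.21 and -0.12, and in 12 of 19 groups the library with the highest nuclear sum had the lowest of these correlations. The nuclear members are short (median 608 bases, against 1455.5 bases for all tested genes), and so are the mitochondrial ones (784 bases). The length of a gene here is the median over its annotated transcripts. In 12 of 19 groups the library with the highest mitochondrial sum had the highest of these correlations, the reverse of the nuclear side. On the first axis of variation inside groups, which carries 29.3% of that variance, 8 libraries lay beyond 1.5 SD, and each count below that they move by over 1.5 times is given without them as well. The part of library composition in the results was not tested, although counts with length as a covariate are given below.

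Over all days pooled, each cell type had the highest median sum of its own markers, but the NSC libraries shifted with the day. The 8 NSC genes (Hes5, Sox2 and others) summed to a median of 2401 TPM in NSC, 641 TPM in BP and 345 TPM in NBN. Median sums of the 8 BP genes (Eomes, which encodes Tbr2, and others) were 957, 1500 and 234 TPM, and of the 8 NBN genes (Tubb3, Neurod6 and others) 3846, 5085 and 7909 TPM, in the same order. Within NSC, the median sum of NSC markers went from 2480 TPM at E11.5 to 1269 TPM at E17.5 and 6655 TPM at E18.5. That of NBN markers in NSC went from 1637 TPM at E11.5 to 5742 TPM at E17.5, above the 4333 TPM of BP on that day, and was 2693 TPM at E18.5. Other cells left signal: 6 interneuron genes summed to a median of 183 TPM (53.1 to 719) in NSC and 11.6 TPM (3.01 to 28.0) in BP, 7 microglial genes to 37.9 TPM (4.27 to 125.3) in NBN and 3.77 TPM (2.35 to 16.6) in BP, and 7 erythroid genes reached 9487 TPM in 1 NSC library. Median sums in NSC, BP and NBN were 2.68, 8.06 and 12.2 TPM for 6 endothelial genes, 3.50, 3.34 and 12.3 TPM for 5 pericyte genes and 18.9, 14.4 and 12.8 TPM for 5 multiciliated cell genes. In such bulk samples, fewer cells of a type and less RNA per cell cannot be told apart.

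Promoters are shown for 3 pairs of members on which the results turn: the complex II genes Sdha and Sdhd, the ATP synthase isoforms Atp5g1 and Atp5g2, and the complex IV isoforms Cox6b1 and Cox6b2. Each line gives the 150 bases before the annotated start, read 5′ to 3′ on the gene's strand, from RefSeq on GRCm38.p6. Capitals mark matches to the NRF1 motif (GCGCA, any base, GCGC) and the ETS motif CCGGAAG (reverse complement CTTCCGG), both searched on both strands. NRF1 and the ETS protein GABP are known regulators of respiratory genes.
Sdha: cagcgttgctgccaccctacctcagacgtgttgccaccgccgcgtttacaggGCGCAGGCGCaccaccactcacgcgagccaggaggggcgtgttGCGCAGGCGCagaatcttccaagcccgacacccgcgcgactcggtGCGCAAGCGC
Sdhd: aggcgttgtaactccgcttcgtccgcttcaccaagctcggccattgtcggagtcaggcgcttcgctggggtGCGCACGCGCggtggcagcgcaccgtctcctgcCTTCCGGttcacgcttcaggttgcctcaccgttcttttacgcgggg
Atp5g1: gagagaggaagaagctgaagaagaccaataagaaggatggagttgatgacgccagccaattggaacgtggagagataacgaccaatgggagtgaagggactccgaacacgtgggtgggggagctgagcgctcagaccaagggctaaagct
Atp5g2: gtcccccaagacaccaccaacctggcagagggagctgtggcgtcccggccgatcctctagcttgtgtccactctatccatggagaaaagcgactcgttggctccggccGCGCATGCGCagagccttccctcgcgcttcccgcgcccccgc
Cox6b1: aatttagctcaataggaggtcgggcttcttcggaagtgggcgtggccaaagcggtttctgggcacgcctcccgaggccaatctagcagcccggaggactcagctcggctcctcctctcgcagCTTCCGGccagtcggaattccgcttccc
Cox6b2: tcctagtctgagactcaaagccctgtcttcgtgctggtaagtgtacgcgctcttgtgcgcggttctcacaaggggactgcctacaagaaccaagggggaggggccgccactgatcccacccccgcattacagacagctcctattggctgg

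All 6 genes lie on the minus strand, and these windows are chr13:74350241-74350390 for Sdha, chr9:50603850-50603999 for Sdhd, chr11:96075632-96075781 for Atp5g1, chr15:102671048-102671197 for Atp5g2, chr7:30626115-30626264 for Cox6b1 and chr7:4753095-4753244 for Cox6b2. Sdha and Sdhd both hold the NRF1 letters, Atp5g2 holds them and Atp5g1 does not, and Cox6b1 holds the ETS letters where Cox6b2 holds neither. Over windows from 250 bases before to 50 after the start, 65 of the 81 nuclear genes matched 70 promoters. The NRF1 letters were in 25.7% of these promoters, against 8.89% of 13979 promoters of tested genes. The ETS letters were in 22.9%, against 15.2%, the YY1 letters AAGATGGC (either strand) in 12.9%, against 3.91%, and CCAAT (either strand) in 41.4%, against 37.4%. A match describes letters in a window, not a bound site.

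Between NSC and BP, compared over the 7 shared days E12.5 to E18.5, most members did not pass the test, and those that did were mostly nuclear genes higher in NSC by small amounts. A gene passed at an adjusted p under 0.05 (limma on log2(TPM + 1), Benjamini-Hochberg over 15231 tested genes), and 48.0% of all tested genes passed here, 27.2% higher and 20.8% lower in NSC. Of the 81 nuclear members 21 were higher and 2 lower. Those lower were Ndufa4l2, given below, and Ndufa1 (-0.18 ± 0.07, limma adjusted p = 0.0355). The Ndufa1 call was lost in several runs that left out a single library. By complex, those higher were 6 of 38 in complex I, 2 of 4 in II, 3 of 8 in III, 4 of 14 in IV and 6 of 17 in V. The median log2 change of the nuclear members was 0.06, against 0.00 for all genes. No member reached a 2-fold change, which 3.03% of all genes did.

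Atp5g1 gave the smallest adjusted p. It is 1 of 3 genes for the same mature c subunit of the ATP synthase rotor, with Atp5g2 and Atp5g3, which differ in the import sequence that is cleaved off. At E13.5 it stood at 143, 124 and 123 TPM in NSC and 104, 121 and 111 TPM in BP, and at E18.5 at 139, 127 and 128 TPM against 116, 122 and 114 TPM. NSC libraries lay above BP libraries on both days. The log2 change was 0.34 ± 0.05 (SE), higher on 7 of 7 days (limma adjusted p = 2.36e-07). Atp5g2 was also higher, by 0.22 ± 0.06 (limma adjusted p = 0.00223), and Atp5g3 did not pass (0.06 ± 0.07, limma adjusted p = 0.51).

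Sdhd, a membrane anchor of complex II, was higher in NSC on 7 of 7 days, with a log2 change of 0.30 ± 0.07 (limma adjusted p = 0.000181). At E12.5 it stood at 144, 120, 137 and 143 TPM in NSC and 95.1 and 96.1 TPM in BP. At E18.5 NSC had 92.3, 118 and 120 TPM and BP 97.0, 99.1 and 106 TPM, so the groups overlapped on that day. Sdha, the flavoprotein that oxidises succinate, changed by 0.10 ± 0.03 (limma adjusted p = 0.00556), and Sdhb and Sdhc did not pass. Other nuclear genes higher in NSC were Uqcr10, a small complex III subunit (0.24 ± 0.07), and Ndufa12, a complex I subunit (0.23 ± 0.06). Uqcrc1 and Uqcrb, both of complex III, changed by 0.21 ± 0.05 and 0.19 ± 0.05.

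Among the lowest-level members, Cox4i2, the isoform of subunit 4 known from lung and oxygen-sensing cells, was higher in NSC (0.53 ± 0.10, limma adjusted p = 3.47e-05). Its level stayed at 4.49 TPM or less in all libraries, and NSC at E18.5 had 1.74, 1.89 and 4.49 TPM against 0.829, 0.786 and 0.482 TPM in BP. On that day the pericyte genes summed to 23.8 to 35.2 TPM in NSC and 4.39 to 7.66 TPM in BP. The part of such cells in the Cox4i2 change was not tested. Ndufa4l2, a hypoxia-induced relative of Ndufa4, was lower in NSC (-0.49 ± 0.14, limma adjusted p = 0.00355), on 6 of 7 days. Cox4i2 reached 1 TPM in 14 libraries, Ndufa4l2 in 44, Cox6b2 in 59 and Cox7a1 in 61, and these are the members nearest the threshold. Cox6a2, Cox8b, Cox8c and Cox7b2, isoforms known from muscle, fat or testis, never reached 1 TPM and stayed outside it, with highest values of 0.460, 0.721, 0.366 and 0.482 TPM.

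All 13 mitochondrial members were lower in NSC by the estimate, and 4 of them passed. The smallest adjusted p among those was that of mt-Co1, the catalytic core of complex IV, with a log2 change of -0.29 ± 0.08 (limma adjusted p = 0.00223). At E13.5 mt-Co1 stood at 9627, 10315 and 11002 TPM in NSC and 16212, 15213 and 12500 TPM in BP. At E18.5 it stood at 14018, 12356 and 12086 TPM in NSC and 10406, 9146 and 11233 TPM in BP. The groups did not overlap on either day, and their order was the opposite. mt-Cytb, mt-Nd3 and mt-Co3 passed with -0.36 ± 0.15 (limma adjusted p = 0.0443), -0.23 ± 0.09 (limma adjusted p = 0.0266) and -0.14 ± 0.06 (limma adjusted p = 0.0337). The mt-Cytb and mt-Co3 calls were each lost in many runs that left out a single library. The mt-Nd3 call was lost without BP E15.5 replicate 2 or without BP E16.5 replicate 1. The count of 4 became 7 without E18.5, 7 without the 8 outlying libraries and 1 without E15.5. With transcript length as a covariate 17 nuclear members were higher and 22 lower in NSC, and under median-of-ratios scaling 13 were higher and 2 lower.

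**Figure D2:**
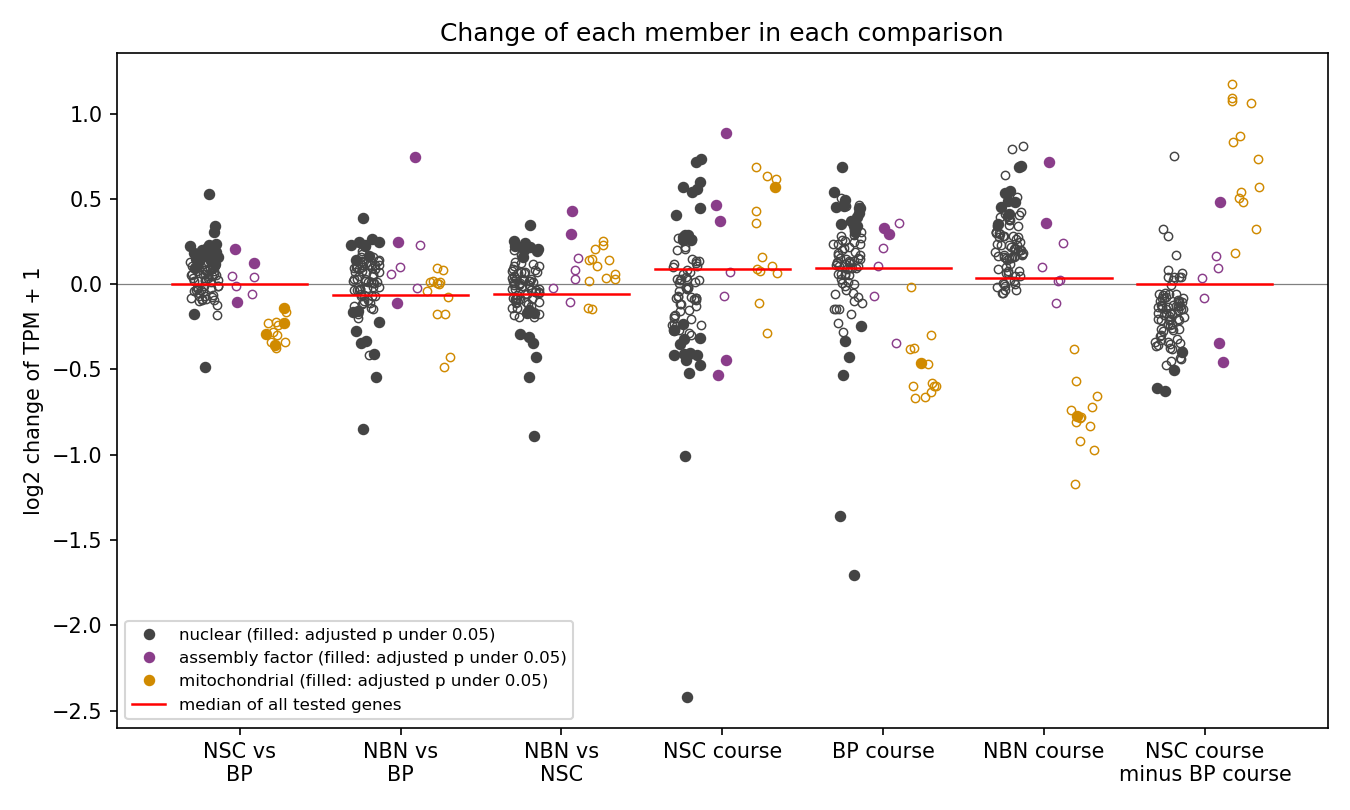
Log2 change (vertical axis) of each of the 101 members in each comparison (horizontal axis), coloured by class, filled where the adjusted p was under 0.05, with a red line at the median of all tested genes. Nuclear members gather near the red line except Cox6b2 and Ndufa4l2, at -2.42 and -1.01 in the NSC course.

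Newborn neurons differed from basal progenitors in single members of both directions, among them isoforms, single subunits and assembly factors. Over the 4 shared days E15.5 to E18.5, 9 of the 81 nuclear members were higher and 9 lower in NBN, and 0 of 13 mitochondrial members passed (0 higher and 1 lower by limma at an unadjusted p under 0.05). Among all tested genes 58.5% passed, 25.3% higher and 33.3% lower, and 10.8% passed with at least a 2-fold change, which no member did. The nuclear median was 0.02 and the median of all genes -0.06. Against NSC on the same days, 9 nuclear members were higher and 9 lower, with 54.6% of all genes passing, 21.8% higher and 32.8% lower and 8.65% with at least a 2-fold change, and 0 mitochondrial members passed (0 higher and 0 lower by limma at an unadjusted p under 0.05). The nuclear median was -0.01, beside -0.06 for all genes. The NBN libraries are the same in both comparisons.

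The c subunit genes of ATP synthase went in opposite directions. Atp5g1 at E18.5 stood at 164, 173 and 176 TPM in NBN and 116, 122 and 114 TPM in BP, with no overlap. Its log2 change over the 4 days was 0.39 ± 0.07, higher on 4 of 4 days (limma adjusted p = 1.93e-06). Atp5g2 at E18.5 stood at 160, 162 and 160 TPM in NBN and 224, 216 and 192 TPM in BP, again apart. Its log2 change was -0.33 ± 0.08, lower on 4 of 4 days (limma adjusted p = 0.000404), and against NSC it was -0.43 ± 0.08 (limma adjusted p = 1.48e-05). Atp5g3, the most abundant of the 3, did not pass (0.20 ± 0.09, limma adjusted p = 0.0606).

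The ratio of Atp5g1 to Atp5g2 within a library, chosen after its values were seen and given without a test, removes a shared scale. It lay between 0.739 and 1.10 in the 13 NBN libraries and between 0.501 and 0.698 in the 24 BP libraries, so no NBN library reached down to a BP library. NSC libraries spanned 0.482 to 0.817, which overlaps both. In NBN the mean ratio was 0.798 ± 0.092 (SD, n = 3) at E15.5 and 1.06 ± 0.037 (SD, n = 3) at E18.5. The 3 genes are near copies of each other with processed pseudogenes, so the split of reads among them is uncertain.

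Cox7a2l, counted here under complex IV by its symbol, was lower in NBN. At E18.5 it stood at 232, 240 and 231 TPM in NBN and 367, 355 and 336 TPM in BP, and at E15.5 at 239, 231 and 251 TPM against 362, 349 and 366 TPM. The groups were apart on both days. The log2 change was -0.55 ± 0.07 against BP, lower on 4 of 4 days (limma adjusted p = 1.06e-08), and -0.35 ± 0.08 against NSC (limma adjusted p = 0.000103). Its ratio to Cox7a2, the common subunit 7a isoform, was 0.834 to 1.27 in NBN libraries. In BP libraries of E15.5 to E18.5 the lowest ratio was 1.38. Cox7a2 itself did not pass against BP (0.10 ± 0.08, limma adjusted p = 0.289).

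**Figure D3:**
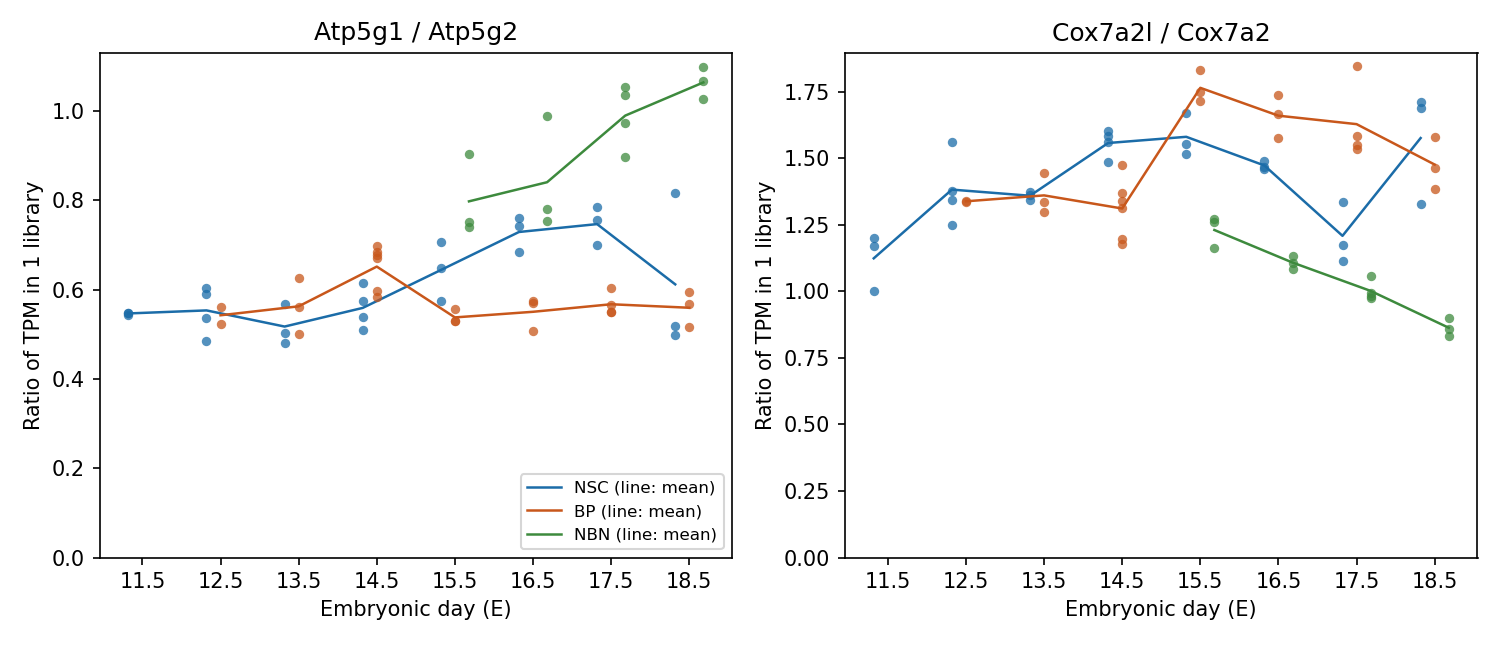
Ratio of TPM within a library (vertical axes, from 0) for Atp5g1 over Atp5g2 and for Cox7a2l over Cox7a2, by embryonic day, 1 point per library and lines through group means. NBN libraries lie above BP libraries for the first ratio (0.739 and more) and below BP libraries of the same day for the second (1.27 and less).

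Among members higher in NBN than in BP, the assembly factor Ndufaf5 had the largest change. Ndufaf5, an enzyme that modifies the complex I subunit Ndufs7 during assembly, stood at 74.4, 65.9 and 73.7 TPM in NBN at E18.5 and 33.9, 30.7 and 34.3 TPM in BP. At E15.5 NBN had 43.3, 40.0 and 42.8 TPM and BP 30.0, 34.4 and 31.9 TPM. Every NBN library was above every BP library on both days. The log2 change was 0.74 ± 0.06, higher on 4 of 4 days (limma adjusted p = 3.15e-15), and 0.43 ± 0.06 against NSC (limma adjusted p = 4.65e-08). Ndufaf2, a chaperone that leaves the finished complex I, was higher too (0.24 ± 0.05 and 0.29 ± 0.05), while Ndufaf1 was lower against BP (-0.11 ± 0.05).

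Within complex I, 5 of 38 nuclear subunits were higher and 2 lower in NBN than in BP. The 2 lower were Ndufb11 (-0.41 ± 0.08, limma adjusted p = 7.32e-06), a membrane arm subunit, and Ndufa2 (-0.34 ± 0.09, limma adjusted p = 0.000896), a matrix arm subunit. Ndufb11 at E15.5 stood at 124, 122 and 113 TPM in NBN and 174, 189 and 179 TPM in BP. Those higher reached 0.27 ± 0.11 (Ndufb6), 0.24 ± 0.07 (Ndufs6, at the NADH-oxidising end), 0.23 ± 0.07 (Ndufa8), 0.22 ± 0.08 (Ndufs5) and 0.14 ± 0.05 (Ndufv2). Sdha was lower in NBN (-0.16 ± 0.04, limma adjusted p = 0.00035). In complex III, Uqcrb was higher (0.25 ± 0.06) and Uqcrh, the hinge protein, lower (-0.27 ± 0.08).

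Cox6b2, the isoform of subunit 6b best known from testis, was lower in NBN at low levels. At E15.5 it stood at 1.08, 0.299 and 0.260 TPM in NBN, 2.88, 2.39 and 4.43 TPM in BP and 3.57, 1.67 and 2.29 TPM in NSC. NBN libraries were below all others of that day. The log2 change on the TPM + 1 scale, which understates low genes, was -0.85 ± 0.15 against BP (limma adjusted p = 5.65e-06) and -0.89 ± 0.16 against NSC (limma adjusted p = 3.86e-06). Its partner isoform Cox6b1 did not pass in either comparison (0.06 ± 0.08 and 0.17 ± 0.08).

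The counts in NBN moved with the processing. All 7 microglial genes were higher in NBN than in BP and than in NSC, with the sums given above, and the part of such cells in the changes was not tested. With transcript length as a covariate, 55 nuclear members were higher and 7 lower than in BP, 45 were higher and 7 lower than in NSC, and 11 mitochondrial members were lower than in BP in place of 0. With libraries of the same day and replicate number as a block, an alternative chosen after seeing the data, 28 nuclear members were higher and 17 lower than in BP, and 4 mitochondrial members lower. Under median-of-ratios scaling 16 were higher and 5 lower than in BP, and 15 higher and 4 lower than in NSC. Without the 8 outlying libraries 16 were higher than in BP and 14 lower than in NSC, and without E18.5 there were 5 higher than in BP and 0 higher than in NSC.

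Along the NSC course, from E11.5 to E18.5, single members passed in both directions. The slope through the 8 daily means, times 7 days, passed upward for 13 and downward for 16 of the 81 nuclear members. Among all tested genes 64.9% passed, 37.1% upward and 27.7% downward, and 23.0% passed with at least a 2-fold change. Cox6b2 and Ndufa4l2 were the only nuclear members past 2-fold, both downward. The nuclear median was -0.04, beside 0.09 for all genes. With the length covariate 36 rose and 13 fell, and under median-of-ratios scaling 8 rose and 18 fell. Over the same days 5 of 8 NBN markers rose (median log2 change 1.22), 6 of 8 NSC markers fell (-1.32), and 4 of 6 tested erythroid genes (3.34), 7 of 7 microglial genes (2.13) and 5 of 5 pericyte genes (2.21) rose. Their part in the members' changes was not tested.

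Cox6b2 fell most of all members. It stood at 17.7, 27.4 and 18.2 TPM at E11.5, at 11.8, 10.4, 11.8 and 18.5 TPM at E12.5 and at 7.93, 9.71 and 11.01 TPM at E13.5. At E15.5 the libraries had 3.57, 1.67 and 2.29 TPM, and at E18.5 3.86, 5.16 and 3.25 TPM. All E11.5 libraries lay above all libraries of E13.5 and later, and the libraries of E15.5 and E18.5 overlapped. The log2 change over the course was -2.42 ± 0.24 (limma adjusted p = 2.04e-12). Cox6b2 made up 4.03% ± 1.0 (SD, n = 3) of the summed Cox6b1 and Cox6b2 TPM at E11.5 and 0.523% ± 0.18 (SD, n = 3) at E15.5. Cox6b1 did not pass (-0.09 ± 0.13, limma adjusted p = 0.557).

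In complex I, 8 of 38 nuclear subunits rose and 5 fell. Ndufc2, a small membrane arm subunit, stood at 116, 146 and 188 TPM at E11.5, 281, 231 and 241 TPM at E15.5 and 218, 315 and 335 TPM at E18.5, with no overlap between the first day and either later one. It rose by 0.71 ± 0.14 (limma adjusted p = 1.03e-05). Ndufb2 rose by 0.73 ± 0.19 (limma adjusted p = 0.000884), from 28.6, 29.3 and 35.4 TPM to 47.2, 56.6 and 52.7 TPM at E18.5. Ndufb10 and Ndufa8 rose by 0.56 ± 0.12 and 0.54 ± 0.11, with the highest daily means at E16.5 (220.2 and 140.7 TPM). The core electron-transfer subunit Ndufs1 fell (-0.40 ± 0.08, limma adjusted p = 2.96e-05), as did Ndufa12 (-0.41 ± 0.13).

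The assembly factors split. Ndufaf3 rose by 0.89 ± 0.14 (limma adjusted p = 1.43e-07), from 15.6, 20.2 and 24.0 TPM at E11.5 to 35.2, 36.2 and 36.2 TPM at E18.5. Ndufaf2 fell by 0.53 ± 0.08 on the log2 scale (limma adjusted p = 4.03e-08), from 86.8, 74.5 and 71.9 TPM to 47.8, 45.0 and 50.6 TPM. Neither gene's first and last days overlapped. Ndufaf5 rose by 0.47 ± 0.09, to 50.6, 49.2 and 48.1 TPM at E17.5, but stood at 38.1, 28.0 and 26.8 TPM at E18.5, beside 30.9, 29.7 and 31.4 TPM at E11.5. The NBN marker sums in NSC were likewise higher at E17.5 than at E18.5 (5742 and 2693 TPM), and their part was not tested.

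Both passing members of complex II fell. Sdha stood at 194, 192 and 182 TPM at E11.5, 129, 133 and 129 TPM at E16.5 and 135.2, 166 and 174.95 TPM at E18.5, and its log2 change was -0.32 ± 0.06 (limma adjusted p = 1.02e-05). All first-day libraries were above all others of the course, and E18.5 lay partly above the middle days. Sdhd went from 169, 154 and 152 TPM to 92.3, 118 and 120 TPM, without overlap (-0.52 ± 0.14, limma adjusted p = 0.000807). In complex III, Uqcrq rose (0.57 ± 0.13), from 49.5, 60.8 and 77.1 TPM to 103, 113 and 119 TPM, and Uqcrb fell (-0.45 ± 0.10), from 231, 185.1 and 200 TPM to 137, 168 and 168 TPM. Of the members counted under complex V by symbol, 5 fell and 1 rose. Atp5h, in the peripheral stalk, went from 383, 379 and 397 TPM to 237, 259 and 252 TPM (-0.47 ± 0.11, limma adjusted p = 0.000185). The catalytic beta subunit Atp5b and the alpha subunit Atp5a1 fell by 0.35 ± 0.10 and 0.32 ± 0.09 on the log2 scale. The 1 that rose was Atp5sl (0.60 ± 0.11, limma adjusted p = 3.02e-06), which is not a core subunit of ATP synthase.

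**Figure D4:**
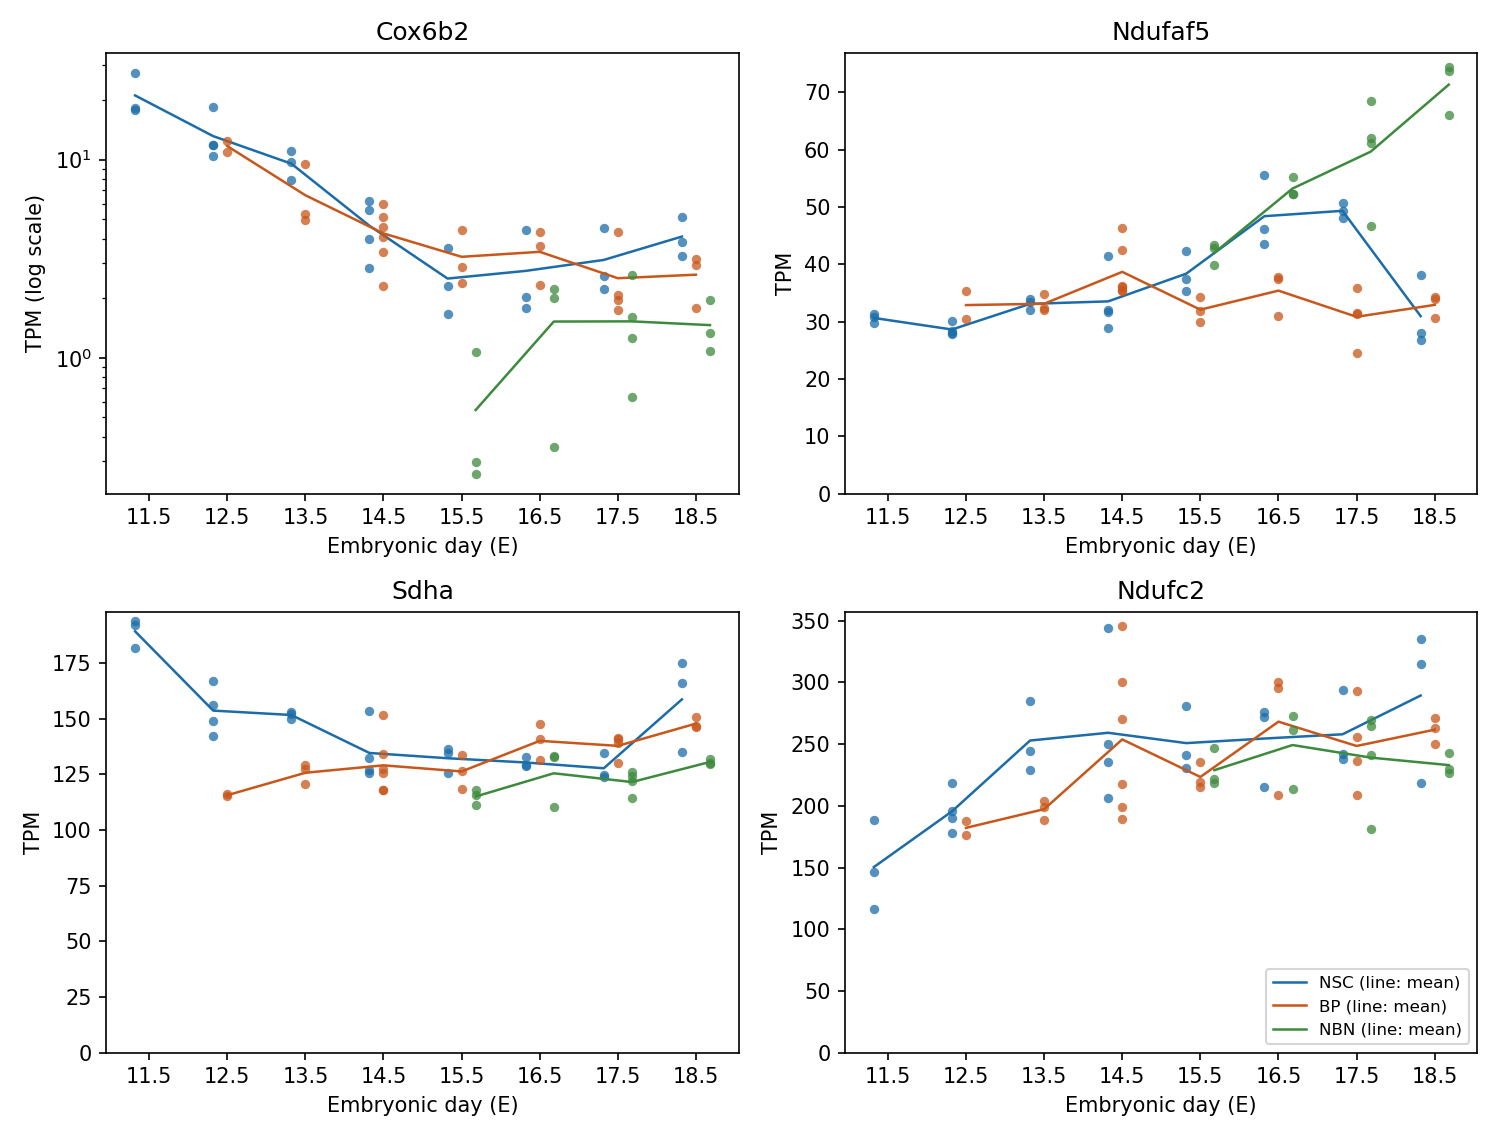
TPM (vertical axes, logarithmic for Cox6b2) of 4 members by embryonic day, 1 point per library and lines through group means. Cox6b2 falls from 17.7 TPM and more in E11.5 NSC, Ndufaf5 reaches 65.9 TPM and more in E18.5 NBN, Sdha starts at 182 TPM and more in NSC, and Ndufc2 starts at 188 TPM or less.

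Along the BP course, from E12.5 to E18.5, 14 nuclear members rose and 6 fell, with 42.6% of all tested genes passing, 27.5% upward and 15.1% downward. The nuclear median was 0.14, beside 0.09 for all genes. Cox6b2 fell here too, from 12.4 and 10.99 TPM at E12.5 to 3.15, 1.79 and 2.94 TPM at E18.5 (-1.70 ± 0.27, limma adjusted p = 8.31e-07). Ndufa4l2 went from 9.16 and 4.65 TPM to 1.17, 0.926 and 0.730 TPM (-1.36 ± 0.32, limma adjusted p = 0.000512). Both genes' first-day libraries lay above all of the last day. Of all tested genes 11.3% passed with at least a 2-fold change, and of the nuclear members these 2.

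Atp5sl rose by 0.69 ± 0.12 (limma adjusted p = 5.05e-06), from 18.2 and 17.8 TPM to 27.2, 25.2 and 25.6 TPM, without overlap. Ndufa13, a complex I subunit first described as GRIM-19, rose by 0.54 ± 0.14 (limma adjusted p = 0.00108), from 67.6 and 67.3 TPM to 92.8, 91.5 and 94.0 TPM. Ndufc2, Ndufa2, Ndufa6, Cox7a2l and Cox6a1 rose by 0.49 ± 0.15, 0.46 ± 0.16, 0.45 ± 0.12, 0.42 ± 0.13 and 0.40 ± 0.12. Sdha rose by 0.31 ± 0.07 (limma adjusted p = 0.000213), from 116 and 115.2 TPM to 151, 146 and 147 TPM. Downward passed Atp5j2 (-0.53 ± 0.16), Ndufv3 (-0.43 ± 0.13), Atp5b (-0.33 ± 0.12) and Atp5f1 (-0.25 ± 0.09). Under median-of-ratios scaling 2 rose and 9 fell, with the length covariate 11 rose and 17 fell, and without the 8 outlying libraries 22 rose and 7 fell. Over this course 6 of 6 endothelial (median 1.38), 5 of 5 pericyte (0.71) and 5 of 6 erythroid genes (6.14) rose, 5 of 5 multiciliated cell genes fell (-1.995), and 4 of 8 NSC markers rose (0.61) and 4 of 8 NBN markers fell (-0.44). Their part was not tested.

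The test of NSC against BP courses over E12.5 to E18.5 passed for 0 nuclear members upward and 4 downward (0 and 11 by limma at an unadjusted p under 0.05), with 29.8% of all tested genes passing, 14.2% upward, 15.6% downward and 10.5% with at least a 2-fold difference. Sdha differed by -0.40 ± 0.09 (limma adjusted p = 0.000858). It went from 156, 142, 149 and 167 TPM at E12.5 to 135.2, 166 and 174.95 TPM in NSC, and from 116 and 115.2 TPM to 151, 146 and 147 TPM in BP, so the groups were apart on the first day and overlapped on the last. Ndufa2, Ndufa12 and Uqcrh gave -0.63 ± 0.21, -0.61 ± 0.19 and -0.50 ± 0.20 (limma adjusted p = 0.0206, 0.0135 and 0.0491). Among assembly factors Ndufaf2 (-0.46 ± 0.12) and Ndufaf1 (-0.34 ± 0.11) passed downward and Ndufaf5 upward (0.48 ± 0.14). The nuclear median was -0.17, beside 0.00 for all genes. Of the 13 mitochondrial members 0 passed (5 upward and 0 downward by limma at an unadjusted p under 0.05). Their estimates ran from 0.19 to 1.18, with a median of 0.73. That median was -0.14 with the length covariate and 0.28 without E18.5. With the length covariate 17 nuclear members passed upward and 1 downward, without the 8 libraries 10 downward, and Sdha passed in each alternative run for it. In this contrast 6 of 8 NBN markers (median 1.60), 5 of 7 microglial (2.30) and 5 of 5 multiciliated cell genes (1.76) were upward and 5 of 8 NSC markers downward (-1.26), and their part was not tested.

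Over the NBN course of E15.5 to E18.5, 9 nuclear members rose and 0 fell (26 and 0 by limma at an unadjusted p under 0.05), with 16.0% of all tested genes passing, 10.9% upward, 5.08% downward and 4.74% with at least a 2-fold change. Cox8a, a small complex IV subunit, went from 254, 250 and 238 TPM to 345, 347 and 345 TPM (0.48 ± 0.13, limma adjusted p = 0.00769). Atp5e, of the ATP synthase central stalk, went from 297, 196 and 279 TPM to 420, 420 and 446 TPM (0.69 ± 0.23, limma adjusted p = 0.0341). Neither overlapped. Ndufaf5 rose by 0.72 ± 0.12 (limma adjusted p = 7.57e-06), with the first and last days given above apart. Ndufb2, Uqcr10 and Atp5k rose by 0.69 ± 0.24, 0.55 ± 0.17 and 0.54 ± 0.19. The nuclear median was 0.22, beside 0.04 for all genes. Without E15.5, where all 3 libraries were high in mitochondrial signal, 0 nuclear members passed, and under median-of-ratios scaling also 0. All 7 microglial genes rose over these days, and their part was not tested.

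Over time few mitochondrial members passed the test. All but the light-strand gene mt-Nd6 are read from a common heavy-strand precursor and cut apart. In NSC mt-Co3 rose by 0.57 ± 0.11 (limma adjusted p = 2.33e-05), and it was the only 1 of 13 to pass. It stood at 6800, 7704 and 8088 TPM at E11.5 and 12334, 11397 and 10786 TPM at E18.5, without overlap. mt-Co1, from the same precursor, gave 0.08 ± 0.16 (limma adjusted p = 0.702), at 10538, 11465 and 9765 TPM and 14018, 12356 and 12086 TPM on those days. In BP 1 of 13 passed, mt-Co1 (-0.46 ± 0.18, limma adjusted p = 0.0397), and in NBN again mt-Co1 alone (-0.77 ± 0.21, limma adjusted p = 0.00564), from 14936, 15817 and 13555 TPM to 8794, 8134 and 8081 TPM. The median over the 13 genes was 0.16 in NSC, -0.58 in BP and -0.78 in NBN. Estimates for the 13 ran from -0.28 to 0.69 in NSC, were below 0 for all 13 in BP (-0.66 to -0.01) and in NBN (-1.17 to -0.38), and 8 were lower over the NBN course by limma at an unadjusted p under 0.05. mt-Co1 and mt-Co3 are also the 2 members of the 13 with the smallest spread inside groups. The mt-Co3 call in NSC was lost under quantile scaling (0.20), the BP call for mt-Co1 in 7 of 14 alternatives, among them without E18.5, and the NBN call without E18.5 or without E15.5.

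Ratios between mitochondrial genes of the same library, chosen after their values were seen and given without a test, changed along the NSC course. The ratio of mt-Atp8 to mt-Nd1, an ATP synthase and a complex I subunit, was 1.01, 1.00 and 0.968 in the 3 libraries of E11.5. At E12.5 it was 1.81, 1.51, 1.51 and 0.930, and from E13.5 on it was 1.77 or more in all NSC libraries. In BP it lay between 1.47 and 2.78 and in NBN between 1.79 and 2.87. The ratio of mt-Co3 to mt-Co1 had a mean of 0.715 ± 0.099 (SD, n = 3) in NSC at E11.5 and 1.26 ± 0.11 (SD, n = 3) at E16.5, and at E18.5 0.898 ± 0.022 (SD, n = 3). mt-Atp8 has only 204 bases, and the part of this short length in its ratio was not tested. It shares 43 bases with mt-Atp6 on the same strand, so reads inside them fit both genes. mt-Nd5 and mt-Nd6 share 14 bases on opposite strands, and whether strand was used in the counting was not stated.

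**Figure D5:**
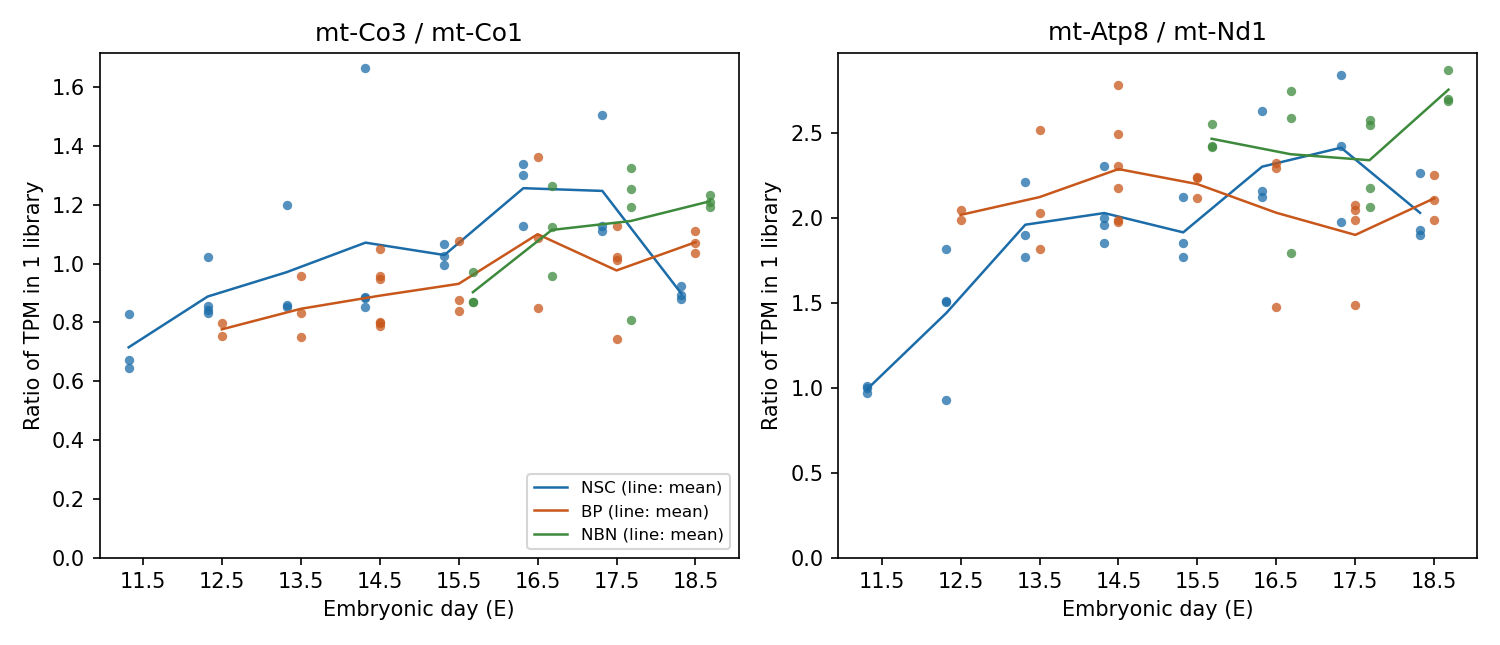
Ratio of TPM within a library (vertical axes, from 0) for mt-Co3 over mt-Co1 and mt-Atp8 over mt-Nd1 by embryonic day, 1 point per library and lines through group means. E11.5 NSC libraries are at 0.968 to 1.01 for mt-Atp8 over mt-Nd1, and 1 library of E12.5 is as low.

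Spread differed among the mitochondrial genes. The SD inside groups on the log2 scale was 0.16 for mt-Co3, 0.26 for mt-Co1 and 0.29 for mt-Nd3, and 0.45 to 0.62 for the other 10. By median level over all libraries mt-Co3 (11937 TPM) and mt-Co1 (11801 TPM) led, within their spread of each other, and mt-Nd5 (985 TPM) and mt-Nd6 (942 TPM) were lowest. Of the nuclear members, Atp5b, the catalytic beta subunit, was highest at 1106 TPM, followed by Cox4i1 (605 TPM) and Atp5a1 (605 TPM). The median SD inside groups was 0.19 for nuclear members and 0.24 for all tested genes. The median SD of the group means was 0.15 for nuclear members and 0.31 for all tested genes, and 0.25 for the 1953 tested genes with a mean of at least 100 TPM.

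Other nuclear genes of mitochondria were counted beside the subunits, without a test between the groups. Of 77 mitochondrial ribosome genes, 33 were higher and 0 lower in NSC than in BP, where 48.0% of all tested genes passed and 27.2% were higher. Over the NSC course 12 of the 77 rose and 40 fell, where 64.9% of all genes passed and 27.7% were downward. In NBN against BP 12 were higher and 23 lower, with Mrpl39 at -0.68 ± 0.06, where 58.5% of all genes passed. The NSC minus BP course was downward for 30 of 77, where 15.6% of all genes were. Of 21 genes of mitochondrial DNA expression, 9 were higher and 0 lower in NSC than in BP. Over the NSC course 1 rose and 11 fell, among them Ssbp1, which coats single-stranded mitochondrial DNA (-0.73 ± 0.11). In NBN against BP, where 25.3% of all genes were higher and 33.3% lower, 3 of 18 tricarboxylic acid cycle genes were higher and 7 lower, with Suclg2, of succinyl-CoA ligase, at -1.01 ± 0.14 and Idh2 at -0.68 ± 0.08. Of 10 respiratory regulators, 3 were higher and 4 lower there, and Ppargc1a, a coactivator of mitochondrial biogenesis, was higher (0.91 ± 0.16). Of 5 electron carrier genes 3 were lower there, namely Etfa (-0.79 ± 0.09), Etfdh (-0.69 ± 0.06) and Etfb (-0.46 ± 0.11).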

How the data were processed

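RNA was measured in 63 bulk libraries of sorted cells, which form 19 groups. The deposited values are TPM, computed by the authors with kallisto 0.43.0 on GRCm38.p2 (mm10), per the submitters' processing notes, and each column sums to the same total, so depth and counting error are unknown. Every column matched a library, and 0 columns belonged to no sample. Members and gene lists were chosen with earlier results of these data known. The 15231 genes that reached 1 TPM in 3 or more libraries were fitted as log2(TPM + 1) in limma 3.58.1 (R 4.3.3) with a mean for each of 19 groups and an intensity trend. Contrasts were means over shared days, or slopes times the days spanned. P-values were adjusted by Benjamini-Hochberg over all tested genes, at 0.05, and a 2-fold change was a log2 change of at least 1. A fold on this scale understates changes of low genes.

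Names in a comparison were drawn mostly from up to 5 passing members with the largest changes in each direction and a group mean of at least 10 TPM. Beside these stood the 13 mitochondrial genes, the isoform sets, the 4 Sdh genes and the members at the threshold. Not every such member is named in each comparison, and some further passing members are. Lists beside the members were electron carriers, mitochondrial DNA expression, respiratory regulators, tricarboxylic acid cycle, mitochondrial ribosome, and markers of NSC, BP, NBN, erythroid cells, microglia, endothelium, pericytes, interneurons and multiciliated cells. Transcript lengths came from GENCODE vM21, which may not be the authors' release, and promoters from RefSeq GRCm38.p6. In simulated data of the same layout on 15231 genes, a log2 change of 0.3 was recovered in 64% of cases for NSC against BP, 42% for NBN against BP, 34% for NBN against NSC, 10% for the NSC course, 14% for the BP course, 0% for the NBN course and 4% for the NSC minus BP course. In the same order, a change of 0.5 was recovered in 88%, 66%, 76%, 40%, 30%, 34% and 14%, and a change of 1 in 100%, 96%, 96%, 88%, 88%, 70% and 66%. The changed genes were drawn from all tested genes, with independent noise of each gene's own spread. The median SD inside groups was 0.54 for the mitochondrial members and 0.24 for all tested genes. These rates therefore do not describe the mitochondrial members. Alternatives were other pseudocounts, filters, scalings, library weights, blocks, a length covariate, days left out and each library left out.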

Additional observations from a re-analysis of the deposited data

Results flagged for a closer look

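In groups of 4 to 6 libraries, the extreme library stood apart from the others by Dixon's criterion in 12 of 95 checks, where chance gives about 1 in 20. The checks share libraries, and most of them were of members picked because the text above describes them. In NSC at E14.5, 1 library had a nuclear sum of 22016 TPM, a log2 ratio of mitochondrial to nuclear sum of 1.25, 322 TPM of Atp5g2 and 298 TPM of Cox7a2. In NBN at E17.5, 1 library had a nuclear sum of 13895 TPM, 9581 TPM of mt-Cytb, 116 TPM of Atp5g2, 313 TPM of Atp5g3 and 68.1 TPM of Sdhd. Single libraries stood apart in BP at E17.5 for mt-Co1 (17038 TPM, the highest) and for Cox6b2 (4.32 TPM, the highest), and in NSC at E12.5 for Atp5g1 (121 TPM, the lowest).

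The slope over E12.5 to E18.5 differed between NSC and BP, by limma's test of the difference, for Ndufaf5 by 0.48 (steeper in NSC). In the other direction it differed for Ndufaf2 (-0.46), Ndufa2 (-0.63), Ndufa12 (-0.61), Uqcrh (-0.50) and Sdha (-0.40). Ndufaf1 also passed in that direction, with the value given above.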

How the results depend on the processing

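The cause of the shifts below was not tested. Alternatives without E15.5, without the 8 outlying libraries and with a block within day were chosen after seeing the data. Quantile scaling moved the median of all genes in the NSC course from 0.09 to -0.07, and the length covariate moved that of the NSC minus BP course from 0.00 to -0.11.

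NSC against BP: nuclear members lower numbered 1 without a filter, with a mean of at least 5 TPM or with a block within day, 4 under quantile scaling, after rescaling without mitochondrial genes or without the outlying libraries, 15 with library weights and 22 with the length covariate, and 13 were higher under median-of-ratios scaling. Mitochondrial members lower numbered 2 without a filter, with the block within day or with length, 1 under quantile scaling or without E15.5, and 7 without E18.5 or without the outlying libraries.

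NBN against BP: nuclear members higher numbered 18 (quantile), 16 (median-of-ratios), 14 (rescaled), 27 (weights), 28 (block within day), 55 (length), 5 (without E18.5) and 16 (without outlying libraries). Those lower numbered 5 (median-of-ratios), 15 (weights) and 17 (block within day), and the nuclear median with length was 0.18. Mitochondrial members lower numbered 1 (quantile), 3 (weights), 1 (replicate block), 4 (block within day), 11 (length) and 2 (without outlying libraries). NBN against NSC: nuclear members higher numbered 15 (median-of-ratios), 23 (weights), 5 (block within day), 45 (length) and 0 (without E18.5), and lower 4 (median-of-ratios), 16 (weights), 5 (without E15.5) and 14 (without outlying libraries). Mitochondrial members numbered 1 higher (median-of-ratios) and 6 lower (length).

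NSC course: nuclear members rising numbered 8 (median-of-ratios, and last minus first day), 20 (weights) and 36 (length), and falling 25 (weights), with a median of 0.13 with length. Mitochondrial members falling numbered 1 (quantile), 2 (weights) and 2 (length), and rising 4 (only these libraries), 2 (last minus first day) and 2 (without outlying libraries). BP course: rising nuclear members numbered 2 (median-of-ratios), 35 (weights), 5 (last minus first day) and 22 (without outlying libraries), and falling 17 (length) and 2 (last minus first day). Falling mitochondrial members numbered 0 without a filter, under quantile scaling, with only these libraries, the replicate block, length, last minus first day and without E18.5, 2 with median-of-ratios and without outlying libraries, and 9 with weights. With length the medians were -0.0256 (nuclear) and -0.0776 (mitochondrial).

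NBN course: rising nuclear members numbered 5 (no filter, and only these libraries), 0 (median-of-ratios), 41 (weights), 1 (without E18.5) and 0 (without E15.5). Falling mitochondrial members numbered 2 (mean of at least 5 TPM, and median-of-ratios), 10 (weights), 4 (replicate block), 5 (length), 3 (last minus first day), 0 (without E18.5), 0 (without E15.5) and 4 (without outlying libraries). Without E15.5 the medians were 0.0555 (nuclear) and -0.0828 (mitochondrial). NSC minus BP course: nuclear members upward numbered 1 (quantile), 2 (weights) and 17 (length), and downward 1 (median-of-ratios, length, and without E18.5), 13 (weights) and 10 (without outlying libraries). Mitochondrial members upward numbered 2 with weights and without outlying libraries. Medians were 0.17 (nuclear) and -0.14 (mitochondrial) with length, and 0.28 (mitochondrial) without E18.5.

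Single members turned direction in 20 cases in which the main run or the alternative passed. Turns without a pass in either run were not counted. With the length covariate these were, in NBN against BP, Ndufa4 0.17, mt-Atp6 -0.38, mt-Atp8 -0.39, mt-Co2 -0.38, mt-Cytb -0.44, mt-Nd2 -0.47, mt-Nd4 -0.54 and mt-Nd4l -0.53. In NBN against NSC they were Cox4i1 0.16, Ndufa4 0.13, Sdhb 0.11, mt-Nd1 -0.31, mt-Nd2 -0.34, mt-Nd4 -0.31 and mt-Nd4l -0.35. In the NSC minus BP course they were Cox4i1 0.25, Cox7a2 0.26 and Ndufa4 0.31. In the NSC course mt-Co2 gave -0.35 with length and -0.38 under quantile scaling.

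Same-numbered libraries of BP and NBN deviated together with correlations over 0.1 in 12 of 13 pairs, the other being E17.5 replicate 4 (-0.149), and correlated best with their own number in 11 of 13. That is a hint of pairing within day from the data, not from the labels, and the block within day is given above for this reason. For NSC and BP 7 of 21 pairs and for NSC and NBN 6 of 12 were over 0.1. The replicate block gave the counts named above (1 for NBN against BP, 0 for the BP course and 4 for the NBN course).

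Leaving out 1 library at a time, nuclear members higher and lower numbered 18 to 23 and 1 to 3 in NSC against BP, 6 to 17 and 8 to 13 in NBN against BP, 7 to 13 and 7 to 14 in NBN against NSC, 9 to 14 and 14 to 20 over the NSC course, 7 to 19 and 2 to 6 over the BP course, 1 to 14 and 0 over the NBN course, and 0 and 2 to 8 in the NSC minus BP course. Mitochondrial members passing numbered 2 to 6 and 0 to 2 lower in NSC and NBN against BP, 1 higher over the NSC course, 0 to 2 lower over the BP course, 1 to 4 lower over the NBN course, and 0 to 2 higher in the NSC minus BP course. The libraries that moved a nuclear count most were NBN E16.5 replicate 1 (17 higher than BP without it), NSC E16.5 replicate 1 (14 lower than NSC), BP E12.5 replicate 2 (7 rising) and replicate 1 (2 falling), NBN E18.5 replicate 3 (1 rising), NBN E17.5 replicate 1 (14 rising) and BP E16.5 replicate 1 (8 downward).

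Over single members and all alternatives, 10897 values kept their side of the threshold, 289 lost and 216 gained a call. Values that changed direction without passing in either run are counted among the 10897. Depth is unknown, so no floor can be given for the lowest members.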
